A study of Mus musculus with 32 samples.

Results

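The genes described here are 10 members of the IL-4 receptor and STAT pathway in mouse B cells: Il4ra, Il2rg, Jak1, Jak3, Stat6, Stat5a, Stat5b, Socs1, Cish and Fcer2a. They were chosen by name from the gene tables of both cell systems, in which they are 10 of 43345 mouse genes, and all 10 passed the filter on low counts in both systems. RNA was sequenced in 32 libraries. In CH12F3, a mouse B lymphoma line treated with an antibody to CD40 (α-CD40), IL4 and TGF-β, an Elof1 knockout (Elof1-KO) carried either an ELOF1 construct (+ELOF1, called ELOF1 here) or an empty vector (+Vector, called vector). Both CH12F3 groups are therefore knockout cells, and the labels do not say how many clones they represent. Day 1.5 had 4 libraries per CH12F3 group, and days 3 and 7 had 2 per group. Primary B cells of the spleen treated with IL4 and LPS were wild-type (WT) or conditional knockout (Elof1-cKO, called cKO), with 5 libraries per genotype on day 2.5 and 3 per genotype on day 3.5. The labels do not name the Cre driver of the conditional knockout or the age of the mice, and no library came from cells without IL4.

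IL-4 binds the receptor chain encoded by Il4ra, which pairs in B cells with the common gamma chain encoded by Il2rg. The kinases JAK1 and JAK3 are bound to these chains, and they phosphorylate the receptor and the transcription factor STAT6, which then enters the nucleus and switches on genes of the B cell response to IL-4. Cytokines of the same receptor family also activate STAT5A and STAT5B, and the products of Socs1 and Cish damp the signal as part of negative feedback. Fcer2a encodes CD23, the low-affinity IgE receptor of B cells, which IL-4 is known to induce. ELOF1 is a transcription elongation factor that travels with RNA polymerase II.

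Libraries held 7112130 to 15550229 mouse counts in CH12F3 and 9807560 to 16359477 in spleen. Levels are given in CPM (counts scaled to library size with edgeR's TMM factors), and the lowest count of any of the 10 genes was 93 (Cish in an ELOF1 library at day 1.5). Elof1 itself, the check of the labels, was 139.6 to 681 CPM in ELOF1 libraries and 0.966 to 5.49 CPM in vector libraries, and 11 to 55.1 CPM in WT against 1.27 to 7.65 CPM in cKO libraries. Library numbers in the labels fall into 2 separate runs of numbers. The lower run (called the first series here, the other the second) holds replicates 1 and 2 of both genotypes at CH12F3 day 1.5 and replicates 4 and 5 of both genotypes at spleen day 2.5. Summed levels of 7 B cell markers were 902 to 1558 CPM in CH12F3 and 2992 to 4757 CPM in spleen. Summed T and NK cell markers were at most 2.89 CPM in spleen, where Cd4 had no count at day 2.5, and 15.9 to 87.4 CPM in CH12F3. Only 2 to 4 of these 9 markers passed 1 CPM in any library of a CH12F3 group, and Ncr1 was at 0 in each group. The summed myeloid markers were 2.72 to 18.1 CPM in spleen and 47 to 235 CPM in CH12F3, with S100a8 and S100a9 at 0 in each CH12F3 group. Basophil and mast cell markers summed to at most 0.0806 CPM in CH12F3 and 3.55 CPM in spleen. The labels do not say that libraries of a group came from separate cultures or animals, so p-values measure the spread between these libraries, which may be technical. In bulk RNA, a change in the share of cells that express a gene and a change in RNA per cell cannot be told apart.

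The receptor chain was the gene with the widest gap between the systems. Il4ra (chromosome 7, 125552282 to 125579472, plus strand, mm10) was 52.6 to 132 CPM over the 16 CH12F3 libraries and 1023 to 2051 CPM over the 16 spleen libraries. The spleen median was 18-fold the CH12F3 median, and the lowest spleen library was 7.74-fold the highest CH12F3 library. Fcer2a (chromosome 8, 3681737 to 3694174, minus strand) showed a gap of the same kind, with 25.8 to 193 CPM in CH12F3 and 464 to 765 CPM in spleen. Cish (chromosome 9, 107296026 to 107302784, plus strand) was 7.29 to 100.1 CPM in CH12F3 and 100.5 to 301 CPM in spleen, so the ranges met without overlapping. Jak1 was the other gene whose ranges did not overlap (161 to 202 CPM against 303 to 375 CPM). Each of the remaining 6 genes had overlapping ranges, with spleen medians 1.16-fold (Stat5b) to 1.71-fold (Stat5a) the CH12F3 medians. The share of all genes without overlap between the systems is not given here, so these gaps cannot be read as particular to the pathway. The tables of the 2 systems were scaled separately for these levels, and line, stimulus and day cannot be told apart.

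Per length of exon (RPKM, CPM per kilobase), the order of the genes differed between the systems. Il2rg had the highest median in ELOF1 libraries (54.4 RPKM), ahead of Socs1 (47.9), Stat6 (28.9), Jak1 (24.8), Stat5b (23.6), Jak3 (17.8), Fcer2a (17.5), Il4ra (14.4), Stat5a (14.2) and Cish (2.85). Among these neighbours in the order, only Stat5a and Cish had ranges that did not overlap. In vector libraries Il2rg was again first (59.8 RPKM) and Cish last (6.73), while Fcer2a stood second with a median of 52 RPKM and a range of 16.6 to 86.1. Over WT libraries the order began with Il4ra (287 RPKM) and Fcer2a (265), which overlapped, followed by Il2rg (69.4) and Socs1 (68.9), which also overlapped. It ended with Stat5b (30.5), Stat5a (27.6) and Jak3 (27.3), whose ranges overlapped. cKO libraries began with the same 2 genes, at 339 RPKM for Il4ra and 284 RPKM for Fcer2a.

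**Figure D1:**
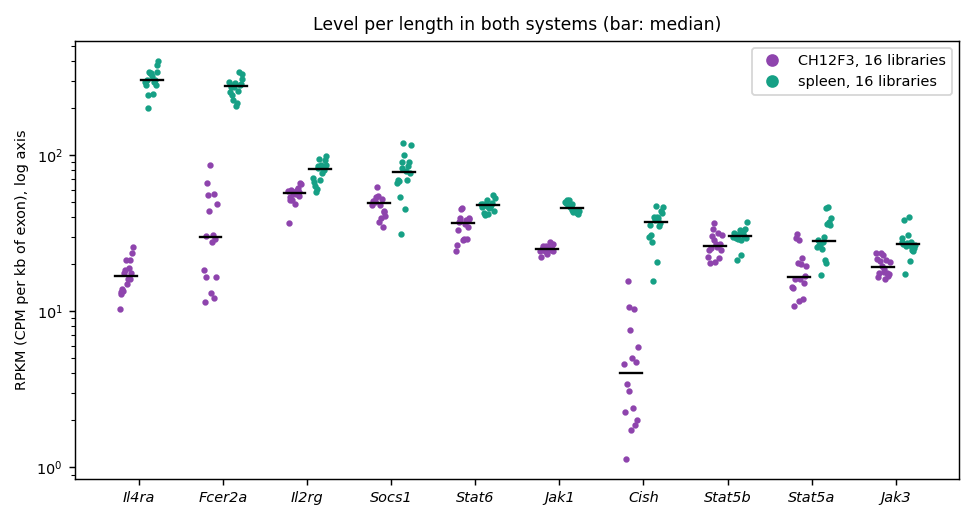
Level per length (RPKM, log axis) of the 10 genes in each of 16 CH12F3 libraries and each of 16 spleen libraries, with a bar at the median. Il4ra, Fcer2a and Cish stand apart between the systems, while Stat5b, Stat6 and Jak3 overlap.

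The first comparison set knockout cells with vector against knockout cells with the ELOF1 construct in CH12F3 (vector over ELOF1). No unmodified CH12F3 cells were sequenced. Lack of ELOF1 in vector cells and the level of the construct in ELOF1 cells therefore cannot be told apart. At day 1.5, 3 of the 10 genes rose, namely Il4ra, Stat6 and Stat5a, against 1.15% of all 14201 genes tested in either direction and 0.606% in the higher direction. None of the 10 fell. With same-numbered libraries treated as pairs, 6 of the 10 rose (8.6% of all genes called), adding Stat5b, Cish and Fcer2a. With scaling to the fly counts, which serve as a spike-in (called fly RNA scaling below), none of the 10 was called, and without a term for library series Stat5a alone was. In the second library series alone, with 2 libraries per group, no gene was called, and the log2 fold changes were 0.54 for Il4ra, 0.35 for Stat6 and 0.84 for Stat5a. The median log2 fold change of the 10 genes was 0.48, against 0.013 over all genes tested. Tests are edgeR's quasi-likelihood test with Benjamini-Hochberg adjustment over all genes, with a threshold of 0.05, and fold changes are log2 ± SE of deficient over proficient.

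**Figure D2:**
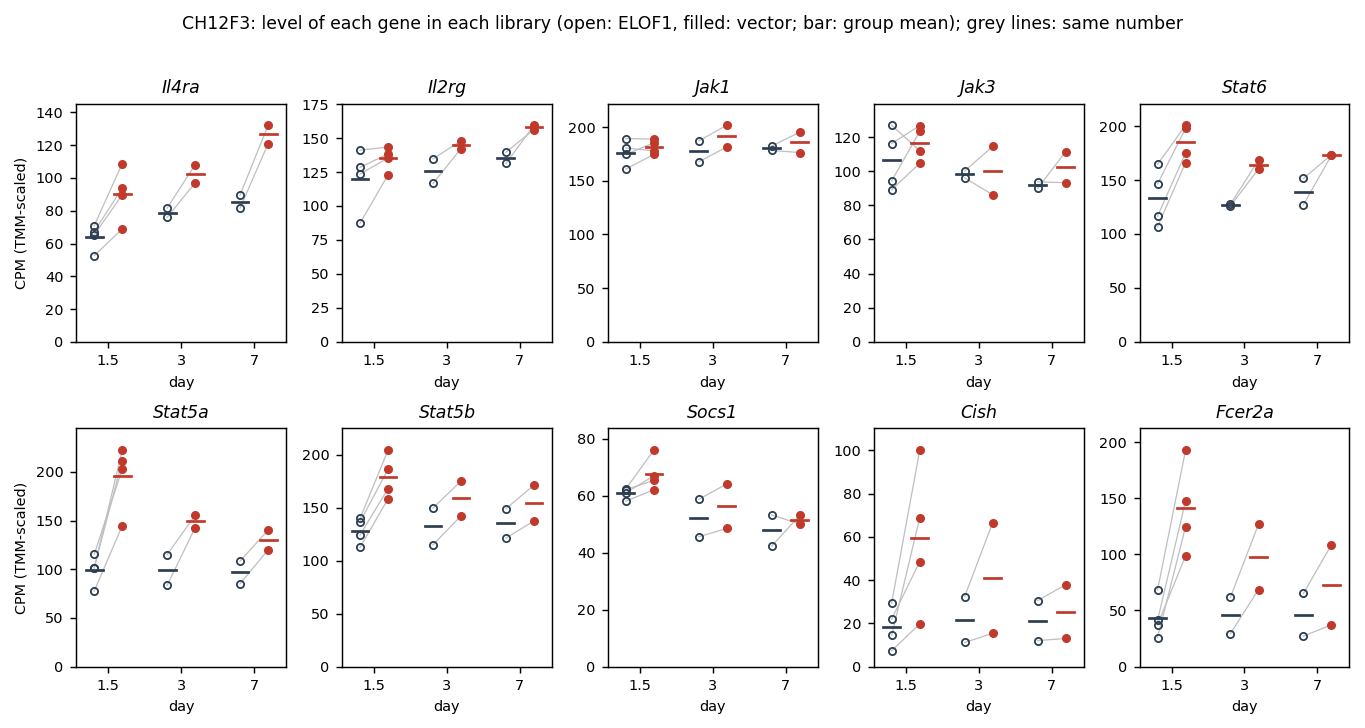
Level (CPM) of each gene in each CH12F3 library by day, with ELOF1 libraries open, vector libraries filled, bars at group means and grey lines joining libraries of the same number. Il4ra, Il2rg, Stat6, Stat5a, Stat5b, Cish and Fcer2a are higher in the vector library of each of the 8 pairs, Il2rg by as little as 0.025 on the log2 scale. The share of all genes with this order was not counted.

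Of the receptor chains, Il4ra was 52.6, 65.3, 67.3 and 70.9 CPM in the ELOF1 libraries of day 1.5 and 68.9, 89.7, 93.8 and 109 CPM in the vector libraries. A single vector library, replicate 1, lay inside the ELOF1 range. The log2 fold change was 0.49 ± 0.10 (adjusted p = 0.034, n = 4 each). This call was lost when any of 5 of the 8 libraries was left out (ELOF1 replicate 1, 3 or 4, vector replicate 2 or 4), with adjusted p up to 0.139. Il2rg, the gamma chain shared by the receptors of several cytokines, was 87.4 to 141 CPM in ELOF1 and 123 to 143 CPM in vector libraries, and the groups overlapped (0.17 ± 0.12, adjusted p = 0.60). Of the 50-base stretches of Il2rg transcripts, 27.5% also occur in the annotated gene Gm20489, so its counts are uncertain.

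At the later days the vector libraries of Il4ra lay above the ELOF1 libraries without overlap. The ELOF1 libraries were 75.9 and 81.6 CPM at day 3 and the vector libraries 97.1 and 108 CPM (0.38 ± 0.14, adjusted p = 1, n = 2 each). By day 7 they were 81.6 and 89.6 CPM against 121 and 132 CPM (0.56 ± 0.14, adjusted p = 0.45, n = 2 each). With same-numbered libraries treated as pairs, Il4ra passed the test at day 7 (adjusted p = 0.0103). Il4ra rose over the mean of the 3 days (0.48 ± 0.075, adjusted p = 0.0047), where 2.8% of all genes were called (1.27% in the higher direction), and kept that call when each of the 16 libraries was left out in turn. The call was lost with fly RNA scaling (0.35, adjusted p = 0.32) and without a term for library series (0.48, adjusted p = 0.056). For that mean, 4 of the 10 genes rose, or 7 of the 10 in pairs (13.2% of all genes). Il2rg was 0.20 ± 0.087 over the mean of the 3 days (adjusted p = 0.26), and 0.21 with adjusted p = 0.0212 when paired.

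Neither receptor-bound kinase was called on any day by edgeR or DESeq2. Jak1 was 161 to 189 CPM in ELOF1 libraries of day 1.5 and 175 to 189 CPM in vector libraries, with a log2 fold change of 0.044 ± 0.073 (adjusted p = 0.87). Its difference was below 0 (-0.051) with fly RNA scaling. Jak3, the kinase bound to the gamma chain, was 89.1 to 127 CPM against 105 to 127 CPM (0.15 ± 0.11, adjusted p = 0.64). Both kinases overlapped between genotypes at day 3 and at day 7 as well, with log2 fold changes of 0.033 to 0.16.

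Stat6, the transcription factor that IL-4 activates, was 107, 117, 146 and 165 CPM in ELOF1 libraries of day 1.5 and 166, 175, 198 and 201 CPM in vector libraries. The groups did not overlap, although the lowest vector library was close to the highest ELOF1 library. Stat6 rose with a log2 fold change of 0.48 ± 0.081 (adjusted p = 0.013, n = 4 each), a call that was lost without ELOF1 replicate 1 (adjusted p = 0.055) or vector replicate 2 (adjusted p = 0.061). At day 3 the libraries were 126 and 128 CPM against 160.2 and 169 CPM (0.37 ± 0.11, adjusted p = 0.98). Day 7 gave 127 and 151 CPM against 173 and 173 CPM (0.31 ± 0.11, adjusted p = 0.77). Neither day had overlapping groups, and Stat6 rose over the mean of the 3 days (0.39 ± 0.060, adjusted p = 0.0045), also when each library was left out in turn, but not with fly RNA scaling (0.25, adjusted p = 0.48) or without a series term (0.39, adjusted p = 0.12).

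Stat5a (chromosome 11, 100859351 to 100885169, plus strand) had the largest log2 fold change of the 3 genes called at day 1.5. Its ELOF1 libraries were 102, 101, 77.5 and 115 CPM and its vector libraries 211.6, 222.4, 145 and 203 CPM. The lowest vector library lay well above the highest ELOF1 library, and the log2 fold change was 0.97 ± 0.15 (adjusted p = 0.0078, n = 4 each). This call was kept in each of the 8 fits that left out 1 library of that day. It was not kept with fly RNA scaling (0.89, adjusted p = 0.11) or with the second library series alone (0.84, adjusted p = 0.56, n = 2 each).

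At day 3, Stat5a was 83.3 and 115 CPM in ELOF1 and 143 and 156 CPM in vector libraries (0.59 ± 0.21, adjusted p = 1). At day 7 it was 85.1 and 108 CPM against 119.9 and 140.1 CPM (0.43 ± 0.21, adjusted p = 0.89). The groups did not overlap on either day, and the ELOF1 means stayed between 96.8 and 99.1 CPM over the 3 days, while the vector means were 195, 149 and 130.01 CPM. With pairs, Stat5a passed at day 3 (0.60, adjusted p = 0.0201). Its rise over the mean of the 3 days was 0.66 ± 0.11 (adjusted p = 0.0069), and with fly RNA scaling the value was 0.52 (adjusted p = 0.15).

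Stat5b, the close paralog that lies 8.6 kb from Stat5a on the opposite strand, was 124, 137, 112 and 139.9 CPM in ELOF1 and 168, 186, 158 and 204 CPM in vector libraries of day 1.5. These groups did not overlap, yet the change missed the threshold (0.48 ± 0.13, adjusted p = 0.086). With pairs it passed (0.48, adjusted p = 0.000127), as did its mean over the 3 days (0.31, adjusted p = 0.000239, against 0.094 unpaired). Of 50-base stretches, 8.21% of Stat5a and 10.98% of Stat5b occur in the other gene, so reads could be split between them. The log2 ratio of Stat5a to Stat5b counts was 0.11 ± 0.22 (SD, n = 4) in vector and -0.39 ± 0.12 (SD, n = 4) in ELOF1 libraries of day 1.5. The groups did not overlap, and the exact 2-sided permutation test gave p = 0.0286, the smallest this design allows, or 0.143 adjusted over the 5 ratios tested. In same-numbered libraries the vector ratio was higher in each of the 8 pairs of the 3 days, and the exact paired permutation test of day 1.5 gave p = 0.125, the smallest that 4 pairs allow. The ratio was higher by 0.34 at day 3 and by 0.24 at day 7 in vector libraries, again without overlap, with exact permutation p = 0.333, the smallest that 2 against 2 allows.

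Of the feedback genes, Socs1, an inhibitor that binds JAK kinases, was 58.1 to 62.5 CPM in ELOF1 and 62.1 to 76.1 CPM in vector libraries of day 1.5 (0.15 ± 0.11, adjusted p = 0.64). Those groups overlapped, as they did at day 3 and day 7 (0.11 on both days). Cish, a feedback gene known to be switched on by STAT5, varied most among libraries of a group. Its ELOF1 libraries of day 1.5 were 29.5, 14.5, 7.29 and 22 CPM and its vector libraries 100.1, 68.8, 19.7 and 48.5 CPM. Replicate 3 was the lowest library of both genotypes, and vector replicate 3 lay below ELOF1 replicates 1 and 4.

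The change in Cish missed the threshold at day 1.5 (1.58 ± 0.56, adjusted p = 0.21). With same-numbered libraries as pairs it passed (1.64, adjusted p = 5.55e-06), and the vector library was higher in each of the 8 pairs, by 1.08-fold to 4.74-fold. At day 3 Cish was 11.1 and 32.4 CPM in ELOF1 and 15.4 and 66.6 CPM in vector libraries, and at day 7 it was 12 and 30.5 CPM against 13 and 37.8 CPM. Both later days held a low and a high library of each genotype, so the groups overlapped (adjusted p = 1 and 0.999). Over the mean of the 3 days Cish was 0.92 ± 0.41 (adjusted p = 0.26), or 0.89 with adjusted p = 5.24e-05 in pairs.

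Cish is shown with its start because the known binding pattern of STAT5, TTCNNNGAA, occurs in it more than once. The searched windows, from RefSeq (mm10), run from 250 bases before to 50 bases after an annotated start, and the pattern reads the same on both strands. All 10 genes had a window, 14 windows in all. The Cish window held 2 matches, beginning at bases 1 and 12 counted from the RefSeq start as 1. Of 32851 windows of this kind, 8.298% held at least 1 match and 0.4566% at least 2. None of the other 9 genes had a match. The stretch below is chr9:107296654-107296683 on the plus strand, which spans the RefSeq start at 107296659, with the matches in capitals.
Cish: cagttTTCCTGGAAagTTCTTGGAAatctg
A match describes letters and was not tested as a binding site.

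Fcer2a, which encodes CD23, was 41.1, 25.8, 37.1 and 68.2 CPM in ELOF1 and 148, 125, 98.7 and 193 CPM in vector libraries of day 1.5. All vector libraries lay above all ELOF1 libraries. The log2 fold change of 1.74 ± 0.40 was larger than that of the called genes, but its adjusted p of 0.055 missed the threshold. Its spread was wide, with 43.1 ± 18 CPM in ELOF1 and 141 ± 40 CPM in vector libraries (SD, n = 4 each). In pairs it passed at day 1.5 (1.73, adjusted p = 1.39e-07) and at day 3 (1.12, adjusted p = 0.00581). The day 3 libraries were 29.4 and 61.8 CPM in ELOF1 and 68.6 and 127 CPM in vector, without overlap (unpaired 1.098 ± 0.55, adjusted p = 1). Those of day 7 were 27.1 and 65.1 CPM against 37.2 and 109 CPM, with overlap (0.67 ± 0.55, adjusted p = 0.999). Over the mean of the 3 days Fcer2a rose by 1.17 ± 0.29 (adjusted p = 0.0498), a call lost when any of 12 of the 16 libraries was left out, with adjusted p up to 0.16, and with fly RNA scaling (adjusted p = 0.072) or without a series term (adjusted p = 0.13).

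The pattern that STAT6 is known to prefer, TTCNNNNGAA, was searched in the same windows and found in 6.953% of them. Fcer2a was the single gene of the 10 with a match, in 1 of its 3 windows, beginning 168 bases before that start. The upstream part of that window, chr8:3690862-3691111 on the minus strand, lies in an intron of the longest Fcer2a transcript and is shown with the match in capitals.
Fcer2a: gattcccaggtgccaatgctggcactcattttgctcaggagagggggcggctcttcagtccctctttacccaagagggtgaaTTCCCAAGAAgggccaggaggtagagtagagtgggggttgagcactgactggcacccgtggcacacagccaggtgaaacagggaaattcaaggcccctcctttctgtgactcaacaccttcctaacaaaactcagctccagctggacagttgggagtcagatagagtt
The absence of a match in the other windows says only that these letters are not there.

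None of the 10 genes was called at day 3 or day 7 by edgeR, where 0.00704% and 0.0352% of all genes were called (0% and 0.0141% in the higher direction). At an unadjusted p under 0.05 there were 3 of the 10 at day 3 (Il4ra, Stat6, Stat5a), against 590 of all 14201 genes. At day 7 there were 2 (Il4ra, Stat6), against 809 of all 14201. DESeq2 called none of the 10 on either day. In pairs, 2 of the 10 were called at day 3 (0.246% of all genes) and 1 at day 7 (0.493%). Each of the 10 log2 fold changes was above 0 on each of the 3 days, with medians of 0.32 at day 3 and 0.24 at day 7. Of all genes tested, 52.53%, 49.76% and 51.87% were above 0 at days 1.5, 3 and 7. Some of the 10 values, such as Jak1 at day 1.5, lay within 1 SE of 0. With fly RNA scaling, which moved the median of all genes to -0.078, -0.19 and -0.14 at days 1.5, 3 and 7, Jak1 was below 0 on each day, Socs1 at days 3 and 7, and Jak3 at day 3. No difference of effects between days passed the interaction test (0% of all genes and 0 of the 10 called, with 0 of the 10 at an unadjusted p under 0.05, and none by DESeq2). Of all 14201 genes, 173 (day 3 against 1.5) and 272 (day 7 against 1.5) were at that unadjusted threshold. The largest of these differences for the 3 genes called at day 1.5 was that of Stat5a between day 7 and day 1.5 (-0.55 ± 0.26, adjusted p = 1).

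**Figure D3:**
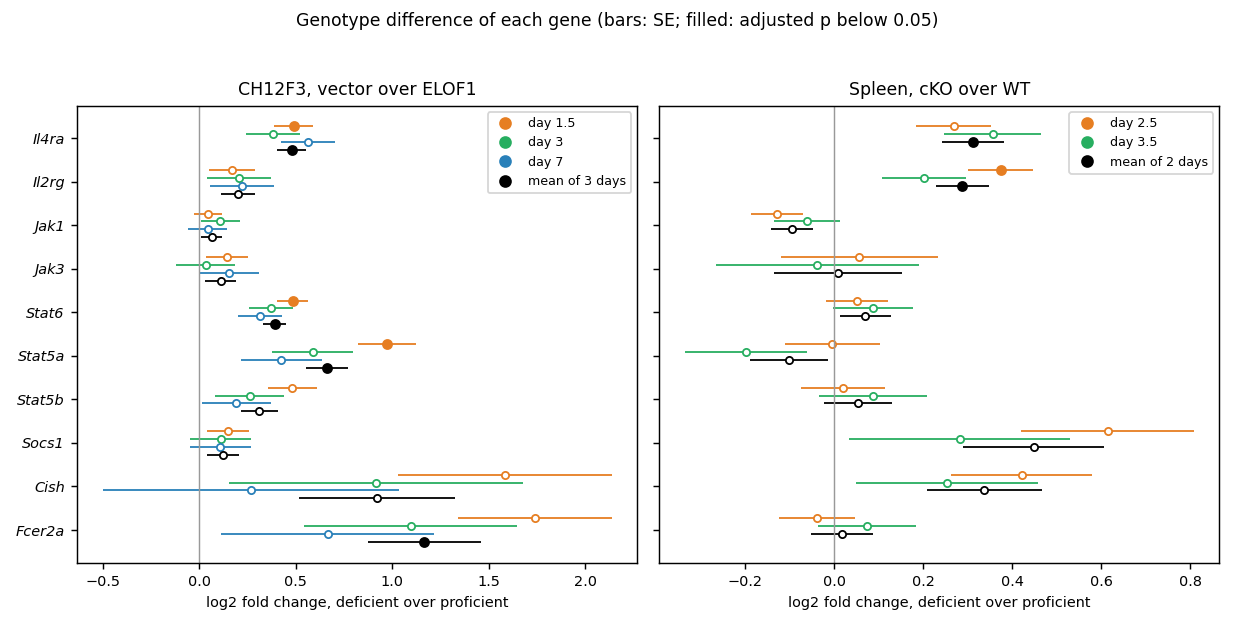
Log2 fold change of deficient over proficient for each gene, by day and as the mean of days, with bars of 1 SE and filled points at an adjusted p below 0.05. CH12F3 values lie above 0 for all 10 genes, although some SE bars reach 0, such as that of Jak1 at day 1.5. Spleen values lie above 0 without overlap of the SE bars with 0 for Il4ra, Il2rg, Socs1 and Cish.

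Some marker levels differed between genotypes in CH12F3 too. At day 1.5 the summed B cell markers were 902 to 1086 CPM in ELOF1 and 1116 to 1395 CPM in vector libraries, without overlap, and none of the 7 markers passed the test singly. Among 5 plasma cell markers, of which 3 were tested, Irf4 rose (0.50 ± 0.10, adjusted p = 0.027) and Prdm1, the repressor that drives plasma cell formation, fell from 27 ± 16.3 CPM to 3.22 ± 1.63 CPM (SD, n = 4 each, log2 fold change -2.87 ± 0.62, adjusted p = 0.043). Over all genes, 0.606% rose and 0.549% fell that day. The summed plasma cell markers overlapped, at 454 to 747 CPM in ELOF1 and 329 to 810 CPM in vector libraries. The part of all these markers in the differences of the 10 genes was not tested.

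In spleen B cells, cKO was compared with WT. At day 2.5, Il2rg rose, and it was the single member called (1 of 10, against 5.18% of all 13367 genes, 2.82% higher and 2.36% lower). The median log2 fold change of the 10 genes was 0.054, against 0.0042 over all genes tested. At day 3.5 none of the 10 was called (2.07% of all genes, 1.14% higher and 0.928% lower). Il4ra and Il2rg were at an unadjusted p under 0.05 that day, against 1808 of all 13367 genes, and DESeq2 called Il4ra. Over the mean of the 2 days Il4ra and Il2rg rose (2 of 10, against 10.9% of all genes, 5.56% higher and 5.34% lower).

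**Figure D4:**
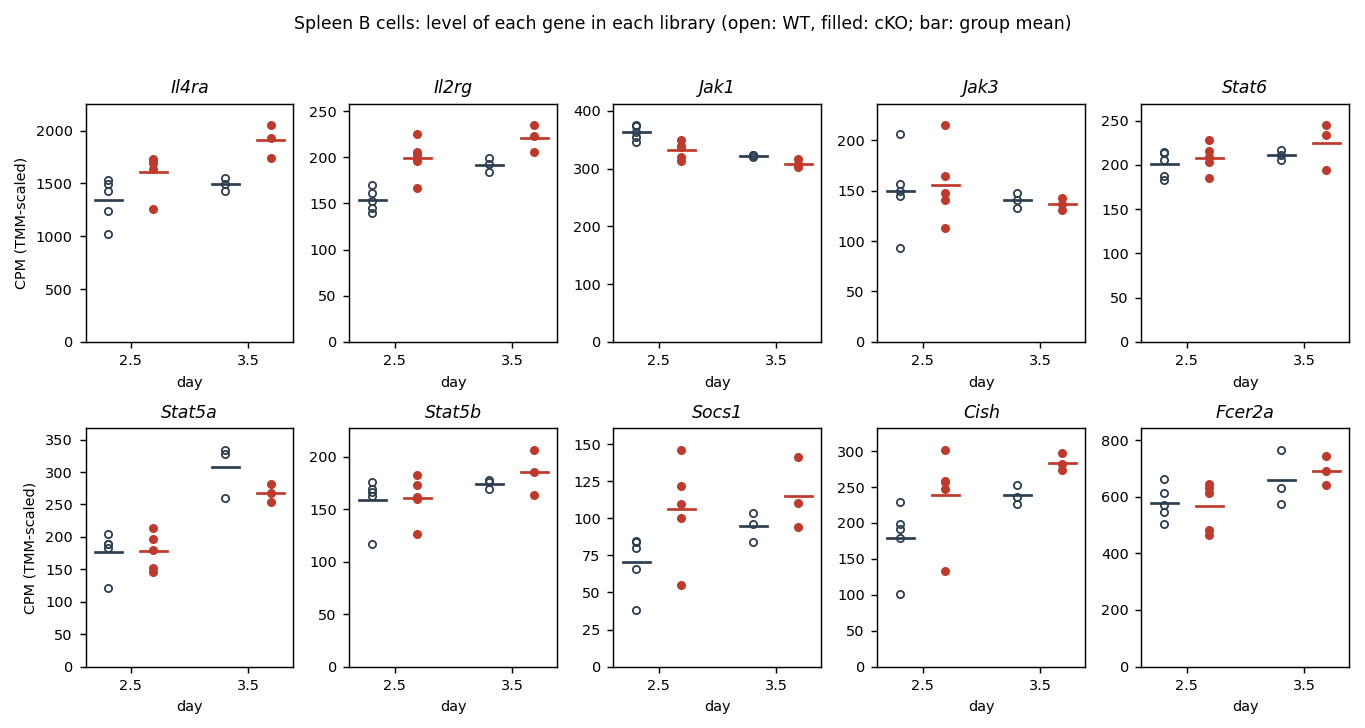
Level (CPM) of each gene in each spleen library by day, with WT libraries open, cKO libraries filled and bars at group means. Il2rg is higher in cKO libraries with an overlap of 1 library at day 2.5, and Stat5a is higher at day 3.5 than at day 2.5 in both genotypes.

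Il2rg was 170.1, 161, 152, 139.6 and 145 CPM in WT and 202, 196, 224.97, 167 and 206 CPM in cKO libraries of day 2.5. A single cKO library, replicate 4, lay inside the WT range. The log2 fold change was 0.37 ± 0.074 (adjusted p = 0.0073, n = 5 each), kept in each of the 10 fits that left out 1 library of that day. With fly RNA scaling, which moved the median of all genes to -0.14, it was 0.22 (adjusted p = 0.76). At day 3.5 the groups did not overlap, with 184, 199 and 193 CPM in WT and 222.9, 235 and 205 CPM in cKO libraries (0.20 ± 0.095, adjusted p = 0.37, n = 3 each). Over the mean of both days it rose by 0.29 ± 0.060 (adjusted p = 0.0052).

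Il4ra was 1496, 1426, 1531, 1243 and 1023 CPM in WT libraries of day 2.5 and 1734, 1718, 1698, 1638 and 1262 CPM in cKO libraries. Replicate 5 was the lowest library of both genotypes, and the cKO replicate 5 lay within the WT range while the other 4 cKO libraries lay above it. The difference missed the threshold (0.27 ± 0.085, adjusted p = 0.086). At day 3.5 the WT libraries were 1499, 1548 and 1430.0 CPM and the cKO libraries 1935, 1743 and 2051 CPM, without overlap (0.36 ± 0.11, adjusted p = 0.12, n = 3 each). The mean of both days passed (0.31 ± 0.070, adjusted p = 0.0082) and kept its call when each of the 16 libraries was left out in turn, but with fly RNA scaling it was 0.088 (adjusted p = 0.70).

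Neither kinase was called by edgeR. Jak1 was 347 to 375 CPM in WT and 314 to 350.4 CPM in cKO libraries of day 2.5 (-0.13 ± 0.058, adjusted p = 0.25), and 320.5 to 323 CPM against 303 to 317 CPM at day 3.5 (-0.061 ± 0.075, adjusted p = 0.84). The groups overlapped at day 2.5 and not at day 3.5. DESeq2 called Jak1 lower at day 2.5 (-0.13, adjusted p = 0.041). Jak3 was 92.9 to 206 CPM in WT and 113 to 214.8 CPM in cKO libraries at day 2.5, with log2 fold changes of 0.056 at day 2.5 and -0.037 at day 3.5.

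No STAT gene of the 10 was called between genotypes in spleen. Stat6 was 183 to 214.99 CPM in WT and 185 to 228.5 CPM in cKO libraries of day 2.5 (0.052 ± 0.070, adjusted p = 0.79) and overlapped at day 3.5 as well (0.088 ± 0.090, adjusted p = 0.79). Stat5a was 183, 204, 189, 189 and 122 CPM in WT and 179.6, 197, 213.3, 152 and 146 CPM in cKO libraries of day 2.5 (-0.0036 ± 0.11, adjusted p = 0.99). At day 3.5 it was 328, 260.3 and 334 CPM against 268, 254 and 282 CPM (-0.20 ± 0.14, adjusted p = 0.63), again with overlap. Stat5b differed by 0.020 ± 0.094 at day 2.5 and 0.087 ± 0.12 at day 3.5 (adjusted p = 0.95 and 0.87). The log2 ratio of Stat5a to Stat5b differed by -0.015 at day 2.5 (exact permutation p = 0.841, n = 5 each) and by -0.27 at day 3.5 (exact permutation p = 0.2, n = 3 each, where 0.1 is the smallest possible).

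Socs1 was 80.3, 85, 83.9, 65.7 and 38.3 CPM in WT and 100.5, 110.0, 146, 122 and 54.9 CPM in cKO libraries of day 2.5. All cKO libraries but replicate 5 lay above all WT libraries. The log2 fold change of 0.61 ± 0.19 missed the threshold (adjusted p = 0.085), and passed in the second library series alone (0.51, adjusted p = 0.034, n = 3 each). Cish followed the same order, with 192, 228.6, 198, 179 and 100.5 CPM in WT and 259, 247, 301, 256 and 133 CPM in cKO libraries (0.42 ± 0.16, adjusted p = 0.16). It also passed in the second series alone (0.38, adjusted p = 0.016, n = 3 each). At day 3.5 the Cish groups did not overlap (252, 226.6 and 236 CPM against 281, 274 and 297 CPM), with 0.25 ± 0.20 and adjusted p = 0.70. With fly RNA scaling, which moved the median of all genes to -0.29 at day 3.5, the differences of Cish, Socs1 and Il2rg that day were -0.053, -0.058 and -0.061.

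Fcer2a was not called in spleen, and its differences were near 0. Its libraries of day 2.5 were 505 to 662 CPM in WT and 464 to 646 CPM in cKO (-0.039 ± 0.085, adjusted p = 0.89), and those of day 3.5 were 576 to 765 CPM against 642 to 745 CPM (0.073 ± 0.11, adjusted p = 0.88). The groups overlapped on both days. Both day 2.5 libraries numbered 5 stood apart, with the lowest Il4ra, Socs1, Cish, Stat5a, Stat5b and Jak3 of their groups. WT replicate 5 also had the most myeloid marker RNA of its group (18.1 CPM, the others 2.72 to 7.46 CPM). In the mean of both days, the B cell marker Cd79b and the myeloid marker Itgam rose in cKO and the B cell factor Ebf1 fell. Over all genes, 5.56% rose and 5.34% fell in that mean. These markers come from lists of 7 B cell and 8 myeloid genes, and their part in the differences of the 10 genes was not tested. Without cKO replicate 5 the count of called members at day 2.5 was 4 in place of 1. No difference of effects between day 2.5 and day 3.5 passed the test for the 10 genes (0% of all genes called, none by DESeq2). At an unadjusted p under 0.05 were 0 of the 10, against 278 of all 13367 genes.

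Genotype effects were compared between the systems, at CH12F3 day 1.5 and spleen day 2.5, by the interaction term of a joint fit. Of the 10 genes, Stat5a and Fcer2a differed (2 of 10, against 0.748% of all 15639 genes), both with a larger effect in CH12F3. The difference was 0.97 ± 0.19 for Stat5a (adjusted p = 0.0067) and 1.77 ± 0.39 for Fcer2a (adjusted p = 0.021). The Fcer2a call was lost without ELOF1 replicate 2 or 3 or vector replicate 1 or 4 of CH12F3 day 1.5 (adjusted p up to 0.069), and both calls were lost with fly RNA scaling, without a term for library series, and in the second series alone. Stat6 differed by 0.42 ± 0.11 (adjusted p = 0.057). The differences of Il4ra (0.21 ± 0.13, adjusted p = 0.76) and Il2rg (-0.21 ± 0.14, adjusted p = 0.78) did not pass. Cell system, stimulus, day and kind of Elof1 loss cannot be told apart in this comparison.

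Time was compared as the mean of both genotypes. In spleen Stat5a rose from day 2.5 to day 3.5 (0.56 ± 0.097, adjusted p = 0.0013), the single call of edgeR among the 10 genes (11.1% of all genes, 7.89% in the higher direction). Each of its 6 libraries of day 3.5 (254 to 334 CPM) lay above each of its 10 libraries of day 2.5 (122 to 213.3 CPM). With fly RNA scaling the change was 0.42 (adjusted p = 0.20). Stat5b was 0.067 ± 0.086 (adjusted p = 0.69), and Jak1 was -0.16 ± 0.053 (adjusted p = 0.058). DESeq2 called Jak1 lower in this step (-0.17, adjusted p = 0.00037). Among 5 plasma cell markers, of which 4 were tested, Jchain (2.17 ± 0.31, adjusted p = 0.00032) and Sdc1 (1.09 ± 0.22, adjusted p = 0.0039) rose in the same step, and their part in the change of Stat5a was not tested. In CH12F3 none of the 10 was called at day 3 over day 1.5 (0.218% of all genes) or at day 7 over day 1.5 (1.32%). At an unadjusted p under 0.05 were Socs1 and Stat6 in both steps and Il4ra in the second, against 1222 and 1787 of all 14201 genes. DESeq2 called Socs1 at day 7 over day 1.5. By edgeR Socs1 was -0.42 ± 0.11 there (adjusted p = 0.095) and Il4ra was 0.31 ± 0.10 (adjusted p = 0.17).

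Other genes of the pathway were read from lists by role, counted by the same test. Among 12 genes known to respond to IL-4 and STAT6, 11 were tested in CH12F3 and 4 rose at day 1.5 (median 0.52), where 0.606% of all genes rose. The lead was Ighe, the constant region of IgE (1.59 ± 0.23, adjusted p = 0.0060), with Ighg1, that of IgG1 (1.54 ± 0.24, adjusted p = 0.0079), and Ccl22, a chemokine (0.68 ± 0.12, adjusted p = 0.016). Levels of the constant regions were low in the line, with 3.17 ± 1.2 CPM of Ighe and 5.38 ± 1.53 CPM of Ighg1 in ELOF1 libraries (SD, n = 4), against 9.74 ± 4.45 and 15.5 ± 2.14 CPM in vector libraries. In spleen the same list held genes called both ways at day 2.5, 2 higher and 2 lower of 11 (median 0.018), where 2.82% of all genes rose and 2.36% fell. Ighg1 fell (-1.43 ± 0.13, adjusted p = 2.85e-05), from 1263 ± 340.2 to 461 ± 73.9 CPM (SD, n = 5 each), and Ccl22 fell (-0.85 ± 0.19, adjusted p = 0.018), while Cd86, a costimulatory ligand, rose (0.66 ± 0.13, adjusted p = 0.0068). The effects differed between systems by the interaction test for Ighg1 (2.96 ± 0.25, adjusted p = 6.25e-08), Ccl22 (1.52 ± 0.25, adjusted p = 0.0012) and Ighe (2.15 ± 0.52, adjusted p = 0.049).

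Of 9 genes known as STAT5 targets, 2 rose in CH12F3 at day 1.5 (median 0.17, against 0.606% of all genes). Bcl2l1, a survival factor, rose by 0.88 ± 0.18 (adjusted p = 0.032) and Pim1, a kinase, by 0.40 ± 0.086 (adjusted p = 0.043). In spleen at day 2.5 none rose and 2 fell (median -0.056, with 2.36% of all genes lower), Bcl2, another survival factor, by -0.50 ± 0.11 (adjusted p = 0.017) and Bcl2l1 by -0.32 ± 0.079 (adjusted p = 0.029). The effect on Bcl2l1 differed between systems (1.19 ± 0.19, adjusted p = 0.0011). Cish, listed with the 10 genes, is also a STAT5 target.

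Among receptors and ligands of the gamma chain family outside the 10 genes, those called in spleen cKO cells at day 2.5 were lower. The gamma chain gene Il2rg itself rose that day, and Il2rg and Il4ra rose over the mean of both days. Of 13 listed genes, 8 were tested in CH12F3 and none was called at day 1.5 (median 0.11). At an unadjusted p under 0.05 was 1 of the 8, against 1904 of all 14201 genes. In spleen, 6 were tested, and 3 fell at day 2.5 while none rose (median -0.68, with 2.36% of all genes lower). Il2rb, the beta chain of the IL-2 receptor, fell by -0.55 ± 0.13 (adjusted p = 0.025), Il9r, the IL-9 receptor chain, by -0.86 ± 0.22 (adjusted p = 0.034), and Il2ra, the alpha chain of the IL-2 receptor, by -0.80 ± 0.22 (adjusted p = 0.041). Il9r was at most 7.97 CPM in spleen, against 216.04 to 411 CPM in CH12F3. Between the systems none of 9 tested genes of this list differed by the interaction test. At an unadjusted p under 0.05 were 3 of the 9, against 1383 of all 15639 genes. Il4 itself was 0.262 to 3.14 CPM in CH12F3 and at most 0.0922 CPM in spleen.

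Among 6 other JAK and STAT genes, none was called in CH12F3 at day 1.5 (median 0.25). At an unadjusted p under 0.05 was 1 of them, against 1904 of all 14201 genes. In spleen Jak2, the kinase of many other cytokine receptors, rose at day 2.5 (0.64 ± 0.081, adjusted p = 0.00037), from 56.9 ± 4.24 CPM to 89.2 ± 11.8 CPM (SD, n = 5 each), and at day 3.5 (0.47 ± 0.10, adjusted p = 0.025). Of 17 other negative regulators, Ptpn6, the phosphatase SHP-1, rose in CH12F3 at day 1.5 (0.50 ± 0.088, adjusted p = 0.016, list median 0.0060). Pias2, which restrains STATs, fell in spleen at day 2.5 (-0.43 ± 0.081, adjusted p = 0.0060, list median -0.031). Over all genes, 0.606% rose in CH12F3 at day 1.5. In spleen, 2.82% of all genes rose and 2.36% fell at day 2.5, and 1.14% rose at day 3.5. Of 12 genes of the insulin receptor substrate branch, through which the IL-4 receptor also signals, 10 were tested in CH12F3 and 12 in spleen. None was called at day 1.5 or day 2.5 (medians 0.074 and 0.096). At an unadjusted p under 0.05 were 1 and 3 of them, against 1904 of all 14201 and 2401 of all 13367 genes. Irs2, an adaptor of that branch, was at most 0.0742 CPM in CH12F3 and 13.3 to 57 CPM in spleen, where it rose over the mean of both days (0.65 ± 0.17, adjusted p = 0.020). Over all genes, 5.56% rose in that mean.

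Genes next to the called members were examined in the same contrasts. Il21r, 24 kb from Il4ra, was -0.070 ± 0.14 in CH12F3 at day 1.5 (adjusted p = 0.90), and Nsmce1 on the other side was 0.13 ± 0.13 (adjusted p = 0.75). Nab2, whose end overlaps that of Stat6, was 0.52 ± 0.17 (adjusted p = 0.18), and Lrp1 on the other side of Stat6 was -0.91 ± 0.35 (adjusted p = 0.26). Stat3, whose end overlaps that of Stat5a, was 0.56 ± 0.24 (adjusted p = 0.31). The sources used here name no strand setting for the counting, so reads in those overlaps cannot be assigned with certainty. Trappc5, 0.5 kb from Fcer2a, was 0.31 ± 0.12 (adjusted p = 0.26). None of these neighbours was called.

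The genes whose levels followed Cish most closely over the 16 CH12F3 libraries included 2 that lie beside it. As a description over libraries that share depth and series, the Pearson r of log2 CPM was 0.98 for 6430571L13Rik, the highest of 14200 tested genes, and 0.93 for Hemk1, a methyltransferase gene, the third highest. They lie 37.8 kb and 24.3 kb from Cish on chromosome 9, and Gbp4, which encodes a GTPase and lies on chromosome 5, came between them (0.93). Mapkapk3, a kinase gene 6.1 kb away on the other side and named after its value was seen, had r = 0.78 and rank 108, against a median r of 0.018 over all tested genes. 6430571L13Rik is a low gene, with 8 to 92 counts per CH12F3 library. It was highest in vector replicate 1 of day 1.5 (10.96 CPM), where Cish was also highest, and lowest in ELOF1 replicate 3 of day 1.5 (0.627 CPM), where Cish was also lowest. In spleen the ranks were 1629 for 6430571L13Rik, 5553 for Hemk1 and 1974 for Mapkapk3 of 13366 genes. 6430571L13Rik itself was 3.4 to 5.34 CPM in WT and 7.23 to 14.2 CPM in cKO libraries of spleen day 2.5 (1.17 ± 0.20, adjusted p = 0.0033, a value looked at after its rank was known), and in CH12F3 at day 1.5 its change was 1.59 ± 0.64 (adjusted p = 0.29).

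**Figure D5:**
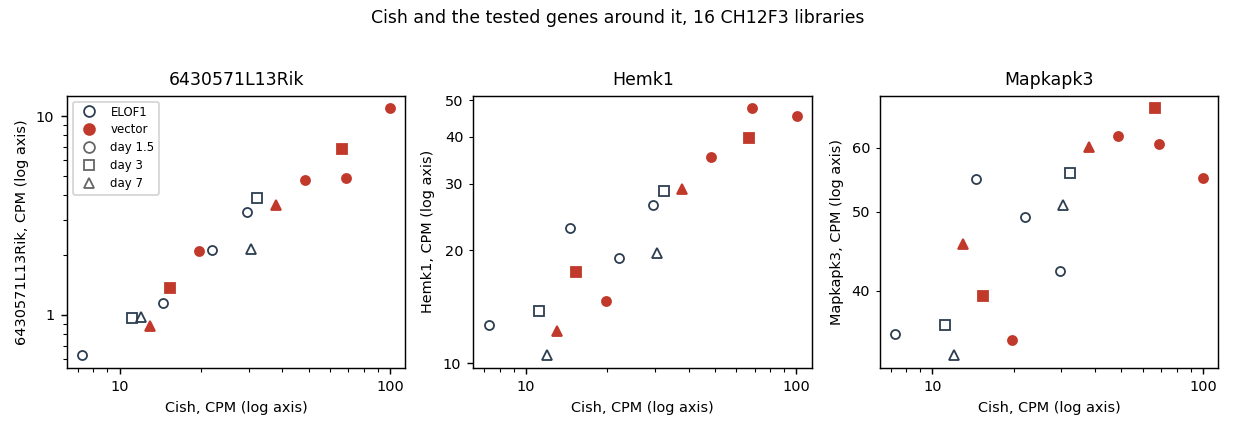
Level of 6430571L13Rik, Hemk1 and Mapkapk3 (CPM, log axis) against that of Cish (CPM, log axis) in the 16 CH12F3 libraries, with 1 point per library. The points of 6430571L13Rik and Hemk1 follow those of Cish more closely than the points of Mapkapk3 do (r = 0.98, 0.93 and 0.78).

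By the same measure, the genes most like Il4ra in CH12F3 included Lsp1 and Fhl3 (r = 0.92 and 0.90 over 11313 genes compared). Those most like Stat6 were Bcl2l1, Gpr183, a receptor that guides B cell migration, and C9orf72 (r = 0.92, 0.90 and 0.90). Ubl3, Rab43 and Plekho1 were most like Il4ra in spleen (r = 0.97, 0.97 and 0.96 over 11120 genes compared). Gm36995, Ccdc22 and Maf1 were most like Stat6 there (0.91, 0.90 and 0.87), of which Gm36995 and Ccdc22 overlap on chromosome X, and Prr12, Akna and Llgl1 were most like Cish (0.97, 0.96 and 0.96).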

How the data were processed

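The deposited values are whole-number counts of reads for each gene, in 1 table for CH12F3 and 1 for spleen, with gene lengths over exons. The submitters' processing notes list Bowtie2, featureCounts, mm10 and dm6, and the sources used here give no settings for them, strand included. Per the labels, total RNA was depleted of ribosomal RNA and made into stranded libraries. Mouse genes (43345) were separated from fly genes (17509), whose counts were 2.15% to 8.39% of mouse counts and served as the spike-in alternative. Symbols were matched by identifier. Coordinates are those of the deposited tables, and those of Il4ra, Socs1 and Fcer2a differ from GENCODE M21.

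Genes were filtered with filterByExpr (minimum count 10) and tested with edgeR 4.0.16 (limma 3.58.1, R 4.3.3) in 1 fit per system over 16 libraries, with a term per group and for library series, and a joint fit of 32 libraries for the comparison of systems. This left 14201, 13367 and 15639 genes, and scripts were tested on simulated data. RPKM is CPM per kilobase of the deposited exon length. Alternatives were fly RNA scaling, DESeq2 1.42.0, no filter, no series term, robust dispersions, 1 series, pairs, only the compared groups, and leaving out each library. In CH12F3, deviations of same-numbered libraries from their group means correlated at 0.34 to 0.67 in all 8 pairs, so paired values are given where they change a call. At days 3 and 7, with 2 libraries per group, both pairs of a day share 1 value by construction. Day 1.5 values include the shift between library series, and within a series they were 0.43 to 0.48, again with 1 value per series. Differently numbered libraries of the same series at day 1.5 correlated at 0.27 to 0.40. The choice of pairs rests on these same data, and the labels do not say what the numbers mark. Levels, exact tests and plots were made in Python 3.11.15 (pandas 2.3.3, matplotlib 3.10.9, SciPy 1.17.1, NumPy 2.4.6).

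The genes and lists were chosen with earlier results of these data known. The text names the 10 genes, Elof1, up to 3 called genes per list and comparison, the nearest tested coding gene on each side of Il4ra, Stat6, Stat5a and Fcer2a, and the 3 genes most like Il4ra, Stat6 and Cish, of which some are not reported here. Il4, Irs2's levels and markers were named after their values were seen.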

Additional observations from a re-analysis of the deposited data

Results flagged for a closer look

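In groups of 4 or 5 libraries, 4 of 40 tests of single genes found a library far from the others of its group by Dixon's criterion, where chance gives about 1 in 20. All 4 were spleen libraries of day 2.5 numbered 5. In cKO replicate 5, Il4ra was 1262 CPM and Cish 133 CPM. In WT replicate 5, Stat5a was 122 CPM and Stat5b 117 CPM. Both libraries belong to the first library series, and WT replicate 5 had more myeloid and basophil marker RNA than the other WT libraries of that day (18.1 CPM and 3.55 CPM summed). The part of these markers in the low values was not tested.

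The effect of genotype differed between CH12F3 day 1.5 and spleen day 2.5 for Stat5a, by 0.97 on the log2 scale, and for Fcer2a, by 1.77. System, stimulus, day and kind of Elof1 loss cannot be told apart.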

How the results depend on the processing

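Counts of called members are given here against the count reported first. CH12F3 day 1.5 (3) gave 0 with fly RNA scaling, 5 with DESeq2, 6 without a filter on low counts, 1 without a series term, 0 in the second series alone, and 1 to 4 when a library was left out (1 without ELOF1 replicate 1 or vector replicate 2, with Stat5a kept in both). A fit of that day's groups alone called 2, Stat5a (adjusted p = 0.022) and Fcer2a (0.022), without Il4ra (0.099) and Stat6 (0.056). The mean of the 3 days (4) gave 0 with fly RNA scaling, 1 without a series term and 2 in the second series. Without the filter, 2 were called at day 3 and 1 at day 7 (0 at both before), 1 and 2 in the 2 CH12F3 time steps (0 before), and 2 in the difference of effects between day 7 and day 1.5 (0 before). Without the filter SEs were smaller: that of Fcer2a, genotype CH12F3 day 1.5, was 0.117, against 0.40 with it. DESeq2 called 1 in the later time step. Spleen day 2.5 (1) gave 0 with fly RNA scaling, 4 with DESeq2, 3 without a filter, 0 without a series term, 3 in the second series, and 1 to 4 when a library was left out (4 without cKO replicate 5). Day 3.5 (0) gave 1 with DESeq2, in the second series or with a fit of that day alone, each time Il4ra. The mean of the 2 days (2) gave 0 with fly RNA scaling, 4 without a filter, 1 without a series term, 4 in the second series, and 2 to 4 when a library was left out (4 without cKO replicate 5 or WT replicate 4 of day 2.5). The spleen time step (1) gave 0 with fly RNA scaling, 2 with DESeq2, 2 without a series term, 3 in the second series and 1 to 2 when a library was left out (2 without cKO replicate 4 or WT replicate 4 or 5 of day 2.5). The difference between systems (2) gave 0 with fly RNA scaling, 0 without a series term, 0 in the second series and 1 to 3 when a library was left out. For leaving out a library and for the second series alone, fewer libraries entered the fit. For the other settings, the cause was not tested.

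With the replicate block, which pairs same-numbered libraries, CH12F3 counts were 6 at day 1.5, 2 at day 3, 1 at day 7 and 7 for the mean of the 3 days. In spleen, where the numbers are only shared (correlations of -0.28 to 0.80), the replicate block gave 4 at day 2.5, 1 at day 3.5 and 4 for the mean. The differences of effects between days within a system kept 0 with the block, and the ratios of Stat5a to Stat5b kept their values. For the difference between systems, a joint fit with the replicate block, added after seeing the data, called 6. These were Stat6, Stat5a, Stat5b, Cish and Fcer2a with a larger effect in CH12F3 and Socs1 with a smaller one. The share of all genes called by that joint fit is not given here, so this count cannot be read as particular to the pathway. No paired analysis was possible for time steps because the numbers pair genotypes within a day. Over all genes, genotype CH12F3 day 1.5 called 164, against 45 with fly RNA scaling, 447 with DESeq2, 735 without a filter, 22 without a series term, 0 in the second series and 1221 with the block. For genotype spleen day 2.5 these were 693, against 93, 1033, 872, 203, 855 and 1543.

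Of 2670 member values under alternatives, 2396 kept their direction and side of the threshold, 71 passed it newly and 55 no longer passed. Another 148 changed sign, none of them called before or after. Fly RNA scaling moved the median of all genes to between -0.29 (spleen day 3.5) and -0.078 (CH12F3 day 1.5) in the genotype comparisons, and put Stat6 and Stat5b below 0 in spleen on both days. Precision is limited by 2 libraries per group at CH12F3 days 3 and 7.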

Other observations

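Other genes of the pathway changed with time in spleen cells. Of 11 tested genes known to respond to IL-4 and STAT6, 6 rose and 1 fell from day 2.5 to day 3.5 as the mean of both genotypes (median 0.40, against 0.0018 over all genes, of which 11.1% were called by edgeR's quasi-likelihood test). Ighg1 rose by 0.93 ± 0.12 (adjusted p = 0.00017), Gfi1, a transcriptional repressor, by 1.22 ± 0.27 (adjusted p = 0.0082) and Xbp1, a factor of the secretory programme, by 0.40 ± 0.098 (adjusted p = 0.015), while Batf, a factor needed for class switching, fell by 0.35 on the log2 scale (adjusted p = 0.015). Of the receptor family, Il2rb rose by 0.73 ± 0.12 (adjusted p = 0.00093) and Il2ra by 0.69 ± 0.20 (adjusted p = 0.033). Il2rb was 25.3 ± 5.62 CPM (SD, n = 5) in WT at day 2.5 and 49.3 ± 5.04 CPM (SD, n = 3) at day 3.5, and 17.1 ± 2.4 and 28.1 ± 1.52 CPM in cKO.

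Among the 17 other negative regulators, Socs2, which is known to restrain growth hormone signals, rose (0.40 ± 0.083, adjusted p = 0.0057) and Socs3 fell (-0.82 ± 0.24, adjusted p = 0.036). In the insulin receptor substrate branch of 12 genes, Irs1 (1.54 ± 0.29, adjusted p = 0.0024) and Gab2 (0.85 ± 0.16, adjusted p = 0.0028), both adaptors, rose from low levels of at most 2.15 and 4.68 CPM at day 2.5. Over all genes, 7.89% rose and 3.22% fell from day 2.5 to day 3.5. Plasma cell markers rose in the same step, and their part in these changes was not tested. In CH12F3, Ighg1 (-1.21 ± 0.24, adjusted p = 0.026) and the STAT5 target Pim1 (-0.64 ± 0.086, adjusted p = 0.0034) fell from day 1.5 to day 7, where 0.894% of all genes fell.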
